A study of Homo sapiens with 6 samples.

Results

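The genes described here are 34 components of the protein-folding machinery of the endoplasmic reticulum (ER) and of the unfolded protein response. They were taken as a list of symbols, which matched 34 of the 60612 gene identifiers in the count table, 1 identifier each. All 34 passed the filter on low counts that left 17224 genes for testing. The list holds 10 chaperones and folding factors, 8 genes of the calnexin cycle and of disulfide bond formation, 3 stress sensors with the transcription factor XBP1, 9 genes of ER-associated degradation, and 3 genes of the translocon and the vesicle coat. RNA was sequenced from U937 cells, an established human myeloid line that the labels describe as acute myeloid leukemia with a wild-type genotype. The labels' growth protocol names fetal bovine serum, while their treatment protocol names RPMI-1640 without it. Cells were given a compound named only B2 at 1 µM for 36 h (3 libraries) or the DMSO vehicle for 36 h (3 libraries). The series title names S100A9 as the target in acute myeloid leukemia, and the comparison asks which transcripts change with B2. Replicates carry the numbers 1, 2 and 3 in both groups, and the labels do not call them separate cultures. A p-value here thus reflects variation among libraries, and how much of it is technical is not known. Summed macrophage markers, given below, set the libraries numbered 3 apart in both groups.

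Proteins that enter the ER are folded by chaperones of the heat shock protein families, by the lectins calnexin and calreticulin, and by enzymes that form and shuffle disulfide bonds. When unfolded proteins accumulate, 3 membrane sensors signal to the nucleus: IRE1 (the product of ERN1) splices the XBP1 messenger RNA, PERK (EIF2AK3) phosphorylates the translation factor eIF2, and ATF6 is cleaved to release a transcription factor. Spliced XBP1 and cleaved ATF6 act on ER stress response elements in the promoters of chaperone genes, and misfolded proteins are exported to the cytosol for degradation. Cells of the monocyte lineage carry this machinery for the synthesis of secreted and membrane proteins.

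Matches to ER stress response elements were present in the promoters of 11 of these genes. The sites are shown because the response acts on elements of this kind. A promoter window here is the stretch from 250 bases before to 50 bases after the RefSeq start of a gene (GRCh38.p14), and 30 of the 34 genes had at least 1 window (not DERL1, DERL3, PDIA3 or SEC24D). The ER stress response element (ERSE) was searched as CCAAT, any 9 bases, CCACG, on both strands. It stood in 8 of the 30 genes (26.7%), against 0.0916% of 27305 genes with a window. The window of HSPA5, which encodes the chaperone BiP, is given whole (chr9:125241294-125241593, minus strand, read 5′ to 3′ toward the gene). The exact ERSE match, from -66 to -48 relative to the start, is in capitals. Inexact matches were not searched for in any window and are not marked.
HSPA5: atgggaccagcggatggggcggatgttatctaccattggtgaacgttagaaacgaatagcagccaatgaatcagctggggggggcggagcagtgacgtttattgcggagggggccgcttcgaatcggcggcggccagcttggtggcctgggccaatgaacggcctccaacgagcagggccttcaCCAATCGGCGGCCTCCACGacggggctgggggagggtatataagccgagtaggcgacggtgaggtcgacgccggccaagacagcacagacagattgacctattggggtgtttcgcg
In the other 7 genes the ERSE is shown in capitals with up to 8 bases on either side, on the strand of the gene; an ERSE that lies on the opposite strand reads CGTGG, 9 bases, ATTGG.
XBP1: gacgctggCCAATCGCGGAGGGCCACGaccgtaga
PDIA6: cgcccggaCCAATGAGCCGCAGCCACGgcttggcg
CANX: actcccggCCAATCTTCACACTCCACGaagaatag
CALR: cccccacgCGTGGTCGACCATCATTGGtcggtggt
CRELD2: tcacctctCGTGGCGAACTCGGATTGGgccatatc
ERO1B: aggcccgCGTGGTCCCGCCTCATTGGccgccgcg
HSP90B1, from -194: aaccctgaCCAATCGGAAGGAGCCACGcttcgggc
HSP90B1, from -89: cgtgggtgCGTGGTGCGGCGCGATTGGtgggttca
A shorter form, ERSE-II (ATTGG, 1 base, CCACG), stood in 3 of the 30 genes (10.0%), against 0.0696% of all genes, and is in capitals below.
HERPUD1: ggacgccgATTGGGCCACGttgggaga
HYOU1, from -79: gcctgggaCGTGGTCCAATgagtacgc
HYOU1, from -185: ccccgtgaCGTGGTCCAATcccaggcc
SDF2L1: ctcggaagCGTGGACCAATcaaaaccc
Together 11 of 30 genes (36.7%) held an ERSE or ERSE-II, against 0.161% of all genes, and no gene held both. The XBP1-binding element UPRE (TGACG followed directly by TGG) was found in 1 gene, HYOU1, where it overlapped the ERSE-II at -185, and in 0.927% of all genes. The element bound by ATF4 with C/EBP factors (TGATG, 1 base, AA) was found in 1 gene, HERPUD1, and in 4.46% of all genes. The genes were listed for their part in ER folding and the unfolded protein response. A larger share with ERSE or ERSE-II than in all genes therefore follows from that choice and is no independent finding. A match is only a string of letters in a window, and windows without one say nothing about the factors.

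Levels between genes were compared per kilobase of merged exon, as CPM (counts scaled to a common library total) divided by exon length and averaged over all 6 libraries. P4HB, a protein disulfide isomerase that is also a subunit of collagen prolyl hydroxylase, was highest at 629.9 CPM per kb, followed by the lectin chaperone CALR at 553 CPM per kb. The oxidoreductase PDIA3, which works with calnexin and calreticulin, stood at 173 CPM per kb, HSPA5 at 112 CPM per kb and PDIA6 at 107 CPM per kb. XBP1 was at 73.4 CPM per kb. The sensors were among the lowest of the list, with ERN1 at 2.77 CPM per kb, EIF2AK3 at 1.34 CPM per kb and ATF6 at 0.940 CPM per kb. The pancreas-enriched oxidase ERO1B was lowest at 0.736 CPM per kb. The 11 genes with an ERSE or ERSE-II had a median level of 35.6 CPM per kb (range 0.736 to 553), and the 19 with a window and neither element a median of 8.17 CPM per kb (range 0.940 to 629.9).

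**Figure D1:**
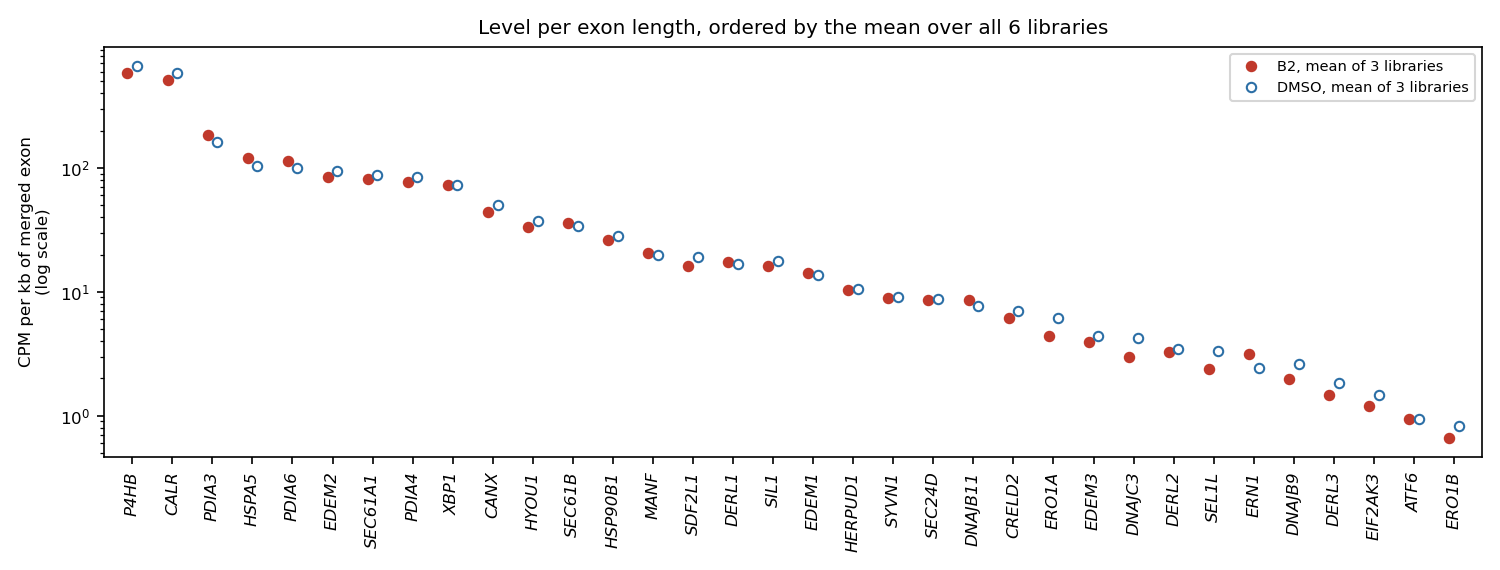
Mean level of each of the 34 genes in CPM per kilobase of merged exon (vertical axis, log scale) for B2 (filled, mean of 3 libraries) and DMSO (open, mean of 3 libraries), ordered by the mean over all 6 libraries. P4HB and CALR stand above the rest, the sensors ERN1, EIF2AK3 and ATF6 lie at the low end, and the paired symbols lie close together along the whole order.

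Total counts were 61150740 to 78431054 per library, and the lowest count of any of the 34 genes in any library was 164, so all were well covered. Mitochondrial genes took 6.44% to 10.3% of the counts. Markers of the U937 line were present, with SPI1 at 198 to 426 CPM, CD33 at 86.0 to 115 CPM and ELANE at 625 to 1307 CPM, while MPO was low at 0.281 to 1.67 CPM. Summed macrophage markers (13 listed, MRC1 at 0) reached 1191 CPM for B2 replicate 3 and 1271 CPM for DMSO replicate 3 and stood at 25.4 to 57.1 CPM elsewhere. Of 10 markers of B cells and plasma cells JCHAIN, TNFRSF17 and MS4A1 were at 0 in every library, and the sum of the list was 20.6 to 27.4 CPM under B2, against 20.0 to 24.4 CPM under DMSO. Of 8 markers of T and natural killer cells CD3D, CD3E, CD3G and KLRD1 were at 0 in every library, and the sum of the list was 187.5 to 379.6 CPM under B2, against 170.1 to 341 CPM under DMSO. Most of that sum was NKG7, at 187 to 376 CPM under B2, against 169 to 340.5 CPM under DMSO. CD2 ran from 0.203 to 3.38 CPM under B2 and from 0.376 to 4.57 CPM under DMSO, highest in replicate 3 of both groups. The sum of 9 epithelial markers was 46.7 to 62.9 CPM under B2, against 6.15, 15.1 and 42.4 CPM in DMSO replicates 1, 2 and 3, and that of 8 fibroblast markers 8.54 to 12.1 CPM under B2, against 11.2 to 12.2 CPM under DMSO; their part in the values of the ER genes was not tested.

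No change with B2 was called: 0 of the 34 genes passed the test against DMSO. Fitted log2 fold changes, B2 over DMSO, ran from -0.51 for DNAJC3 to 0.37 for ERN1, with 10 positive and 24 negative, and their median was -0.13 against -0.081 over all 17224 genes. Over the table as a whole, 0 genes (0.0%) had an adjusted p below 0.05 in edgeR's quasi-likelihood test, with a smallest adjusted p of 0.674, while DESeq2 called 3 and limma-voom 0. At an unadjusted p below 0.05 stood 0 of the 34 genes, against 85 genes or 0.493% of the table. The groups overlapped in all 34 genes, whereas non-overlapping groups were found in 3.56% of all genes. The sign of the median rested on DMSO replicate 2: without that library the median of the 34 genes was 0.052, with 20 positive and 14 negative. In bulk RNA, fewer cells of a type and less RNA per cell cannot be told apart.

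What the data could resolve differed by gene. Standard errors ran from 0.23 to 0.62 on the log2 scale, and for 17 of the 34 genes (50%) the 95% interval of the fold change lay within 2-fold either way, against 36.6% of all genes. For the other 17 a 2-fold difference in at least 1 direction lay inside the interval. These intervals come from the fit without the replicate number, so differences between numbers count as error in them. The median standard error of the 34 genes was 0.36 in that fit and 0.27 with the replicate number as a block.

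**Figure D2:**
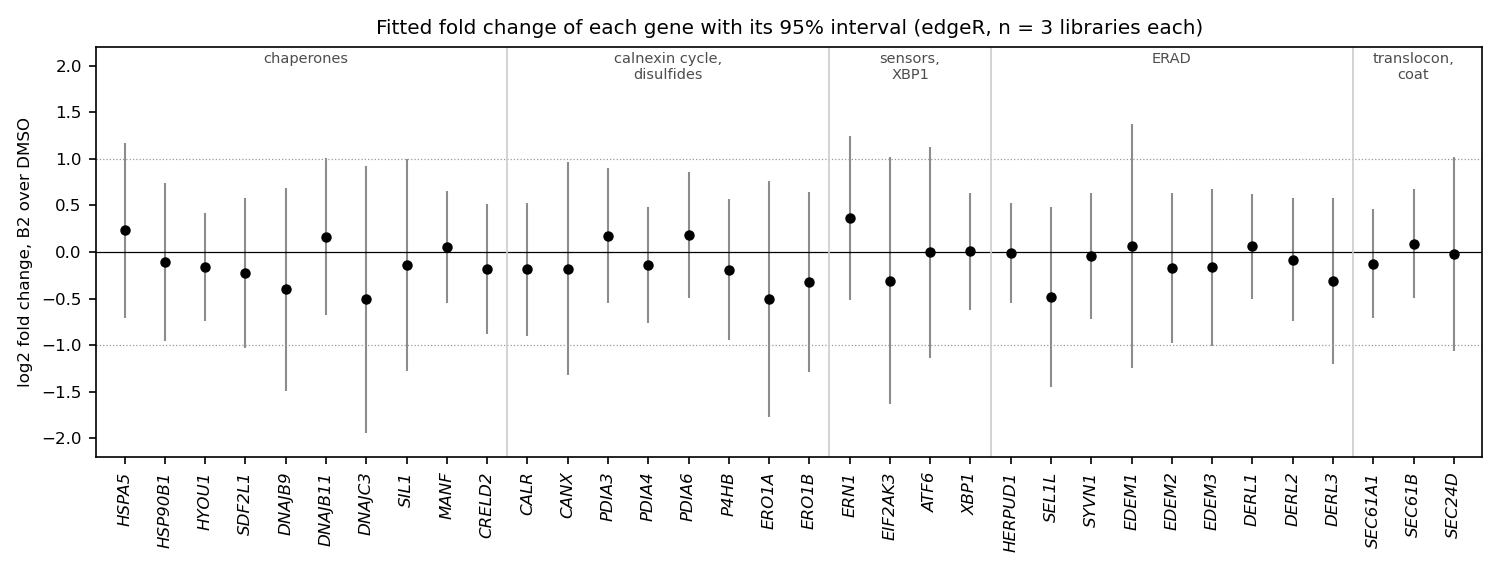
Fitted log2 fold change of each gene, B2 over DMSO (points), with its 95% interval (lines) from edgeR on 3 libraries per group; dotted lines mark 2-fold either way. Every interval crosses 0, and the widest belong to DNAJC3, EIF2AK3, EDEM1 and ERO1A.

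Among the chaperones, HSPA5 (ENSG00000044574; chromosome 9, 125234853 to 125241330, minus strand, GRCh38 in GENCODE 29), the main ATP-driven chaperone of the ER lumen and the protein that holds the sensors inactive, read 426, 511 and 486 CPM under B2, against 179, 564 and 471 CPM under DMSO. DMSO replicate 1 stood apart below the other 5 libraries, which lay close together. The means were 475 ± 43.6 CPM under B2, against 404 ± 201 CPM under DMSO (SD, n = 3 each). The log2 fold change of 0.23 (SE 0.41) was -0.11 without DMSO replicate 1 and 0.53 without DMSO replicate 2. HSP90B1, the ER member of the HSP90 family, read 84.7, 116 and 171 CPM under B2, against 81.8, 172 and 146 CPM under DMSO. Both groups covered nearly the same range, and the log2 fold change was -0.11 (SE 0.37; 0.12 without B2 replicate 1 and -0.41 without B2 replicate 3). HYOU1, which exchanges nucleotide on BiP, read 269, 262 and 244 CPM under B2, against 329.7, 229 and 310.1 CPM under DMSO. All B2 values lay between the DMSO values, with a log2 fold change of -0.16 (SE 0.25).

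DNAJ proteins bring unfolded clients to BiP. DNAJB9, which also keeps IRE1 inactive, read 3.12, 4.04 and 9.72 CPM under B2, against 5.88, 6.70 and 9.68 CPM under DMSO. Replicate 3 was the highest library of both groups, and the log2 fold change was -0.40 (SE 0.47; -1.05 without B2 replicate 3). DNAJC3, known as an inhibitor of PERK, read 10.5, 17.4 and 21.6 CPM under B2, against 6.43, 44.6 and 19.4 CPM under DMSO. DMSO replicates 1 and 2 were the lowest and highest of all 6 libraries, a 6.93-fold range inside the vehicle group, and the log2 fold change of -0.51 (SE 0.62) was 0.34 without DMSO replicate 2. SDF2L1, a luminal partner of the DNAJ proteins, read 17.1, 16.3 and 20.4 CPM under B2, against 31.2, 14.9 and 16.7 CPM under DMSO. Here DMSO replicate 1 was the highest library, and the log2 fold change of -0.23 (SE 0.35) was 0.19 without it. DNAJB11, another BiP co-chaperone, ran from 46.5 to 51.3 CPM under B2 and from 24.1 to 66.2 CPM under DMSO. MANF, a secreted and ER-resident survival factor, ran from 45.4 to 52.0 CPM under B2 and from 41.3 to 59.7 CPM under DMSO. CRELD2, an ER stress-inducible folding factor, ran from 28.8 to 34.7 CPM under B2 and from 24.4 to 45.4 CPM under DMSO, so that in all 3 genes the B2 libraries lay inside the DMSO range. Summed over the 10 chaperones and folding factors, the level was 992, 1095 and 1191 CPM under B2, against 818, 1217 and 1199 CPM under DMSO.

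**Figure D3:**
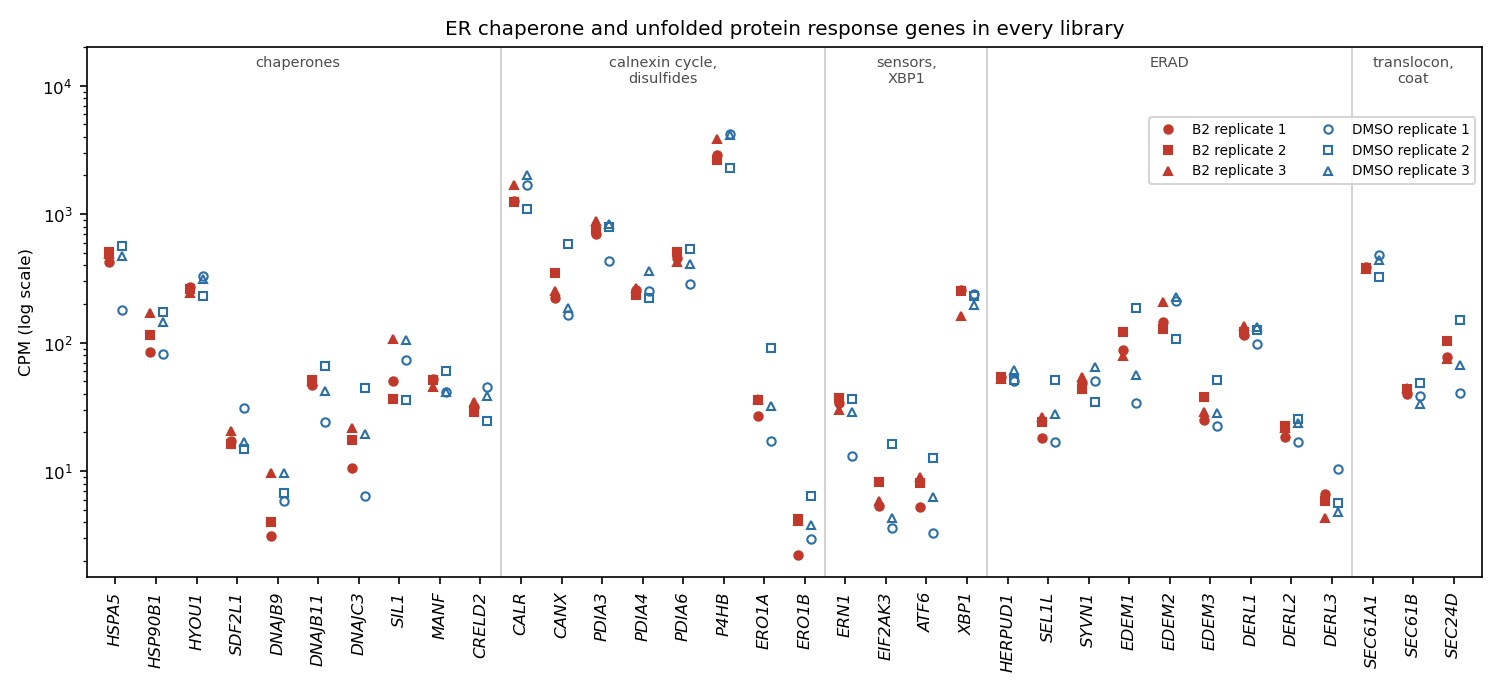
CPM of each of the 34 genes (log scale) in each library, by role: B2 filled and DMSO open, with the marker shape giving the replicate number. The B2 symbols mostly lie between the DMSO symbols, and DMSO replicates 1 and 2 take the outer positions in many genes.

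The calnexin cycle holds newly made glycoproteins until they are folded. CALR, its soluble lectin, read 1272, 1242 and 1698 CPM under B2, against 1683, 1103 and 2006 CPM under DMSO. The means were 1404 ± 255 CPM under B2, against 1597 ± 458 CPM under DMSO (SD, n = 3 each), with a log2 fold change of -0.19 (SE 0.31; 0.011 without DMSO replicate 3 and -0.42 without DMSO replicate 2). CANX, the membrane-bound lectin, read 222, 351 and 254 CPM under B2, against 164, 588 and 186 CPM under DMSO. Replicate 2 was the highest library in both groups, more so with DMSO, and the log2 fold change of -0.18 (SE 0.50) was 0.62 without DMSO replicate 2.

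Disulfide isomerases make and correct the bonds that lock a fold in place. PDIA4 read 257, 237 and 266 CPM under B2, against 253, 222 and 361 CPM under DMSO, with a log2 fold change of -0.14 (SE 0.27; 0.092 without DMSO replicate 3). P4HB ran from 2656 to 3836 CPM under B2 and from 2291 to 4234 CPM under DMSO. PDIA3 ran from 704 to 881 CPM under B2 and from 433.5 to 836 CPM under DMSO, and PDIA6 from 427 to 509 CPM under B2 and from 286 to 534 CPM under DMSO. P4HB and PDIA6 kept all B2 libraries inside the DMSO range, and PDIA3 was highest in B2 replicate 3. ERO1A, the oxidase that recharges these isomerases, read 26.7, 35.5 and 36.7 CPM under B2, against 17.2, 91.2 and 31.9 CPM under DMSO. DMSO replicates 1 and 2 again enclosed every other library, by 5.29-fold, and the log2 fold change of -0.51 (SE 0.55) was 0.40 without DMSO replicate 2 and -0.88 without DMSO replicate 1. Its paralog ERO1B ran from 2.24 to 4.22 CPM under B2 and from 2.94 to 6.41 CPM under DMSO.

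Of the stress sensors, ERN1 (ENSG00000178607; chromosome 17, 64039142 to 64130819, minus strand) had the largest positive estimate of the list. It read 34.02, 37.4 and 30.1 CPM under B2, against 13.2, 36.6 and 29.1 CPM under DMSO. It was the only 1 of the 34 genes that was higher with B2 in all 3 same-numbered pairs (log2 differences 1.36, 0.032 and 0.052), a pattern that 6.71% of all genes showed. Nearly all of the difference lay in the pair numbered 1, and the log2 fold change of 0.37 (SE 0.38) was 0.056 without DMSO replicate 1 and 0.66 without DMSO replicate 2. EIF2AK3 read 5.39, 8.23 and 5.88 CPM under B2, against 3.60, 16.2 and 4.34 CPM under DMSO. DMSO replicate 2 was far above the other 5, and the log2 fold change of -0.31 (SE 0.58) was 0.68 without it. ATF6 read 5.22, 8.06 and 8.93 CPM under B2, against 3.31, 12.6 and 6.33 CPM under DMSO. The means were 7.40 ± 1.94 CPM under B2, against 7.43 ± 4.76 CPM under DMSO (SD, n = 3 each), and the log2 fold change of -0.0053 (SE 0.50) was 0.60 without DMSO replicate 2.

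XBP1 (ENSG00000100219; chromosome 22, 28794555 to 28800597, minus strand) itself read 255, 252 and 161 CPM under B2, against 239.7, 230.1 and 195 CPM under DMSO. Replicate 3 was the lowest library of each group, and the means were 223 ± 53.8 CPM under B2, against 222 ± 23.2 CPM under DMSO (SD, n = 3 each). The log2 fold change was 0.0061 (SE 0.28), with a 95% interval from -0.63 to 0.64. Counts per gene do not separate spliced from unspliced XBP1, and phosphorylation or cleavage of the sensors is not seen in RNA, so these values describe the supply of transcripts and not the activity of the pathway.

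In ER-associated degradation, HERPUD1, a scaffold of the retrotranslocation complex, had the smallest ratio of highest to lowest library among the 34 genes (1.22). It read 54.5, 54.0 and 52.3 CPM under B2, against 49.9, 51.2 and 60.9 CPM under DMSO, with a log2 fold change of -0.011 (SE 0.23) and a 95% interval from -0.55 to 0.53. SEL1L, the adaptor of the ubiquitin ligase SYVN1, had the smallest p of the 34 genes (unadjusted p = 0.284). It read 18.1, 24.2 and 26.5 CPM under B2, against 16.7, 51.3 and 28.1 CPM under DMSO, and the log2 fold change of -0.48 (SE 0.42) was 0.011 without DMSO replicate 2. SYVN1 ran from 43.6 to 53.9 CPM under B2 and from 34.6 to 64.5 CPM under DMSO. DERL3, a derlin of secretory cells, read 6.65, 5.89 and 4.29 CPM under B2, against 10.4, 5.68 and 4.82 CPM under DMSO. Its highest library was DMSO replicate 1, and the log2 fold change of -0.31 (SE 0.39) was 0.10 without it. The other derlins were less spread, with DERL1 at 115 to 135 CPM under B2, against 98.2 to 133 CPM under DMSO, and DERL2 at 18.5 to 22.4 CPM under B2, against 16.8 to 25.5 CPM under DMSO.

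The EDEM proteins trim mannose from misfolded glycoproteins and send them to degradation. EDEM1 had a wide vehicle group, from 79.3 to 121 CPM under B2 and from 33.9 to 185 CPM under DMSO. EDEM2 ran from 129 to 209 CPM under B2 and from 107 to 227 CPM under DMSO, and EDEM3 from 24.8 to 37.6 CPM under B2 and from 22.5 to 51.4 CPM under DMSO. All 3 had every B2 library inside the DMSO range. The translocon subunit SEC61A1, part of the channel through which proteins enter the ER, ran from 372 to 389.9 CPM under B2 and from 327 to 482 CPM under DMSO. Its partner SEC61B ran from 39.6 to 44.8 CPM under B2 and from 33.55 to 48.2 CPM under DMSO. SEC24D, which selects cargo for vesicles leaving the ER, ran from 75.2 to 102 CPM under B2 and from 40.6 to 151 CPM under DMSO. The 16 genes given by their range had log2 fold changes from -0.32 to 0.18, with 7 positive and 9 negative.

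Genes with an ERSE or ERSE-II in the promoter and those without covered overlapping ranges. The 11 genes had a median log2 fold change, B2 over DMSO, of -0.16 (range -0.32 to 0.23, 3 positive). The 19 genes with a window and neither element had a median of -0.14 (range -0.51 to 0.37, 5 positive).

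The vehicle group varied more than the B2 group. The ratio of the highest to the lowest library was larger with DMSO than with B2 in 31 of the 34 genes (91.2%), against 72.1% of all genes, with DNAJB9, SIL1 and XBP1 the exceptions. The median ratio was 1.36 with B2 and 2.10 with DMSO for the 34 genes, and 1.53 with B2 and 2.05 with DMSO for all genes. All 3 B2 libraries lay inside the DMSO range in 26 genes (76.5%; 50.3% of all genes). DMSO replicate 2 was the highest library in 17 genes (50%; 32.8% of all genes), DMSO replicate 1 the lowest in 18 (52.9%; 32.9% of all genes), and both in 14 (41.2%; 19.1% of all genes). DMSO replicate 2 was in turn the lowest library in 10 genes, among them CALR, P4HB, HYOU1 and PDIA4. Groups and libraries were compared in this way after the values had been seen.

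The differences between these libraries moved with base composition, a relation also looked for after the values had been seen. Across the 34 genes the log2 ratio of DMSO replicate 2 to DMSO replicate 1 had a Spearman correlation of -0.79 with the GC content of the transcripts, and across 17015 genes of -0.60. The log2 ratio of B2 replicate 2 to B2 replicate 1 gave -0.89 across the 34 genes and -0.45 across all genes. Each correlation is across genes of a single pair of libraries, and genes that share a library are not independent replicates. Of the 21 genes with GC at or below the median of all genes (50.2%), 19 were higher in B2 replicate 2 than in B2 replicate 1 and 20 higher in DMSO replicate 2 than in DMSO replicate 1. Of the 13 genes above it, 1 was higher in B2 replicate 2 and 2 in DMSO replicate 2. For DMSO the ratio was highest in DNAJC3 (2.77, GC 40.3%), EDEM1 (2.44, GC 49.8%) and ERO1A (2.40, GC 41.5%) and lowest in SDF2L1 (-1.06, GC 66.1%), while for B2 it was highest in ERO1B (0.89, GC 37.5%) and lowest in SIL1 (-0.47, GC 55.5%). Exon length moved with the same ratio (Spearman 0.61 across the 34 genes for DMSO and 0.50 for B2). Across all genes this relation was weaker (0.26 for DMSO and 0.19 for B2). The fold change of B2 over DMSO had a Spearman correlation of 0.11 with GC. With the trend of each library with GC and length removed, 0 of the 34 genes were called and the median log2 fold change was -0.089; what set the trend was not tested.

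**Figure D4:**
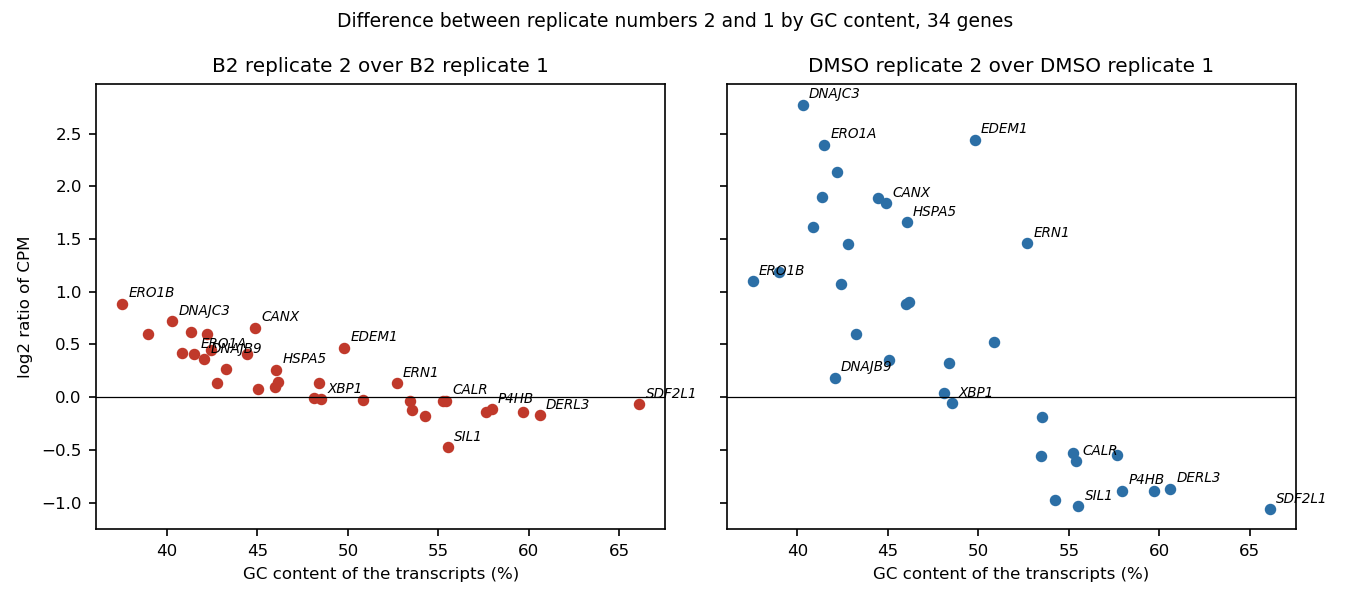
log2 ratio of CPM in replicate 2 to replicate 1 (vertical axis) against the GC content of the transcripts in percent (horizontal axis) for the 34 genes, with B2 on the left and DMSO on the right. Genes low in GC mostly lie above 0 and genes high in GC mostly below it in both panels, over a wider range with DMSO (-1.06 to 2.77). Among the exceptions, ERN1 (GC 52.7%) lies above 0 and XBP1 (GC 48.5%) below it in both panels.

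Replicate numbers were compared in a fit with treatment as a term. Same-numbered libraries of the groups deviated together in these same counts, so the p-values of this test are no independent evidence that numbers differ. The test of the 3 numbers gave 0 of the 34 genes with an edgeR adjusted p below 0.05, against 461 genes (2.68%) of the table. At an unadjusted p below 0.05 stood 12 of the 34 genes (35.3%), against 21.8% of all genes. Without B2 replicate 1 the test called 11 of the 34 genes (32.4%), against 4124 of the genes tested (22.9%). Without B2 replicate 2 it called 6 (17.6%), against 1726 genes (9.61%), and without DMSO replicate 1 it called 1 (2.94%), against 441 genes (2.41%). Each of these fits left 1 number with 1 library only, so their counts carry little weight. The count also moved with all libraries kept, to 9 of the 34 genes (26.5%) with counts divided by 4, against 17.1% of the genes tested, and to 7 (20.6%) with the stricter filter, against 15.6%. DESeq2 called 5 (14.7%), against 11.7% of the genes tested, and limma-voom 4 (11.8%), against 7.42%. Summed by role, the sensors with XBP1 were lowest in the libraries numbered 3, at 206 CPM for B2 and 235 CPM for DMSO. The sum, which XBP1 dominates, was 299.9 and 306 CPM in B2 replicates 1 and 2. In DMSO replicates 1 and 2 it was 259.8 and 295 CPM. XBP1 was not called between numbers, and ERN1, EIF2AK3 and ATF6 were each lowest in DMSO replicate 1. The sum of the calnexin cycle and disulfide genes was instead highest in the libraries numbered 3, at 7402 CPM for B2 and 7990.5 CPM for DMSO. Summed macrophage markers were high in the same libraries. Not every listed marker was: APOE was lowest there in each group, at 0.858 CPM for B2 and 0.438 CPM for DMSO. The part of these markers in the values of the ER genes was not tested.

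SIL1 (ENSG00000120725; chromosome 5, 138946720 to 139293557, minus strand), a nucleotide exchange factor that resets BiP, came nearest to a call, with an edgeR adjusted p of 0.0507 over the 3 numbers. It read 50.6, 36.4 and 107 CPM under B2, against 73.4, 35.7 and 104 CPM under DMSO. The libraries numbered 3 were the highest and those numbered 2 the lowest in both groups. Number 3 over number 2 was called, with a log2 fold change of 1.55 (SE 0.32, edgeR adjusted p = 0.0224). That is 1 of the 34 genes (2.94%), close to the 2.42% of all genes called higher in that contrast, so it says nothing particular about the list. Number 3 over number 1 gave 0.78 (adjusted p = 0.323, edgeR) and number 2 over number 1 gave -0.77 (adjusted p = 0.233, edgeR). The call of number 3 over number 2 was lost without B2 replicate 3 (adjusted p = 0.517), DMSO replicate 2 (adjusted p = 0.192) or DMSO replicate 3 (adjusted p = 0.301), and with library totals as the only scaling (adjusted p = 0.0509). Over its alternatives the adjusted p ran from 2.6e-04 to 0.517. For DESeq2 and limma-voom that range holds the test of all 3 numbers in place of the contrast. SIL1 was singled out after its values had been seen, and its exons overlap those of MATR3 and SNHG4 on the opposite strand. The strand setting of the counts is not given in the sources used here, so reads of these genes may be mixed.

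Near-identical copies could take reads from a few members. The processed pseudogene PDIA3P1 had 872 to 2223 counts per library, and the copies HSPA5P1, HSP90B2P and HSP90B3P had at most 10. Exons of 19 of the 34 genes overlap a gene on the opposite strand and those of 3 a gene on the same strand, so their counts are less certain than those of the 15 genes that overlap none.

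Other genes of the pathway were read from 8 lists, and 0 of their 121 tested genes were called higher or lower with B2. The arm of PERK with ATF4 targets had 5 positive and 9 negative log2 fold changes of 14 (median -0.034), with EIF2S1, the subunit that PERK phosphorylates, at 41.8 ± 8.14 CPM under B2, against 53.9 ± 21.6 CPM under DMSO (SD, n = 3 each). Genes of ATF6 processing and of the CREB3 family had 3 positive and 6 negative of 9 (median -0.068). In that list WFS1, an ER membrane protein, read 0.298, 0.479 and 0.776 CPM under B2, against 0.108, 0.180 and 0.167 CPM under DMSO. The groups of WFS1 did not overlap, but every library was below 1 CPM, and the log2 fold change of 1.75 (SE 0.63) had an edgeR adjusted p of 1.0. Translocation and signal peptide removal had 4 positive and 14 negative of 18 (median -0.12), with the signal recognition subunit SRP72 at 49.6 ± 7.38 CPM under B2, against 67.2 ± 12.8 CPM under DMSO. Besides WFS1, the groups did not overlap in SRP72 and in the glycosylation gene ALG5, so in 3 of the 121 genes, where 3.56% of all genes had this.

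Further genes of ER-associated degradation had 2 positive and 17 negative of 19 (median -0.15), with FAF2, a factor that recruits the extraction machinery, at 51.1 ± 9.25 CPM under B2, against 37.3 ± 21.5 CPM under DMSO. N-glycosylation and glucose trimming had 4 positive and 12 negative of 16 (median -0.18), and OSTC, of the oligosaccharyltransferase, averaged 49.3 ± 2.78 CPM under B2, against 58.8 ± 7.21 CPM under DMSO. Further disulfide and prolyl isomerases had 2 positive and 13 negative of 15 (median -0.17), with FKBP2 at 13.8 ± 1.94 CPM under B2, against 19.8 ± 7.76 CPM under DMSO. The groups overlapped in FAF2, OSTC and FKBP2. KDEL receptors and the COPII coat had 3 positive and 13 negative of 16 (median -0.13), with the coat subunit SEC23A at 30.4 ± 6.65 CPM under B2, against 44.3 ± 18.3 CPM under DMSO. Cytosolic heat shock proteins had 2 positive and 12 negative of 14 (median -0.18), with HSPA4 at 28.0 ± 3.54 CPM under B2, against 35.6 ± 13.2 CPM under DMSO. Negative estimates outnumbered positive ones in all 8 lists. They also did over all genes, where 37.9% were positive and 62.1% negative. The negative share was larger in each list, though only slightly for the PERK arm (9 of 14). What set that share was not tested. Some list medians changed sign under alternatives. The median of the PERK arm was 0.019 with upper-quartile scaling and 0.12 without B2 replicate 2. That of the ATF6 and CREB3 genes was 0.028 with library totals as the only scaling. Between replicate numbers 1 of the 121 genes was called (0.826%, below the 2.68% of all genes). It was EIF2AK2, a kinase of eIF2 that is activated by double-stranded RNA (edgeR adjusted p = 0.0354). It read 12.8, 19.5 and 57.4 CPM under B2, against 7.33, 38.4 and 44.3 CPM under DMSO. That call was lost without B2 replicate 3 (adjusted p = 0.166) or DMSO replicate 1 (adjusted p = 0.167), and with library totals as the only scaling (adjusted p = 0.133).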

How the data were processed

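RNA abundance was measured by RNA sequencing of total RNA isolated with TRIzol, per the labels' protocols, in 6 libraries. The values the authors deposited are taken here to be estimated counts (expected counts) per Ensembl gene, with no normalization. That reading rests on the pattern of small values given below, as no label names the counting tool. Reads were aligned with HISAT2 2.0.4 according to the submitters' processing notes. How and on which build and annotation reads were counted, and with what strand setting, is not given in the sources used here. Every value was whole, so none was rounded, but 4 occurred 6465 times against 3144 times for 3 and 2022 times for 5, so small counts are less exact than their size implies. Of the 60612 identifiers, 60401 were named from a gene name table and 187 from GENCODE 29, which also gave exon lengths, overlaps and the transcripts for GC content (GRCh38).

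Libraries were grouped by the treatment in their titles. Genes passing filterByExpr (minimum count 10, minimum total 15) were scaled by TMM (factors 0.861 to 1.07) and tested with edgeR 4.0.16 (quasi-likelihood F test, R 4.3.3), with Benjamini-Hochberg adjustment over all 17224 genes and a threshold of 0.05. CPM were computed by edgeR with the TMM factors. Log2 differences within a replicate number or a group added 0.1 to CPM. Replicate numbers were tested with treatment as a term. Deviations from group means correlated at 0.21, 0.40 and 0.50 between same-numbered libraries, each above 0.1, and pairing by number was accepted on these data alone, as no label explains the numbers. Promoter sequences are from RefSeq (GRCh38.p14). Alternatives were RLE, upper-quartile and total scaling, no filter or a minimum count of 50, DESeq2 1.42.0, limma-voom 3.58.1, counts divided by 4, each library left out, number 3 left out, and the replicate block; removal of GC and length trends was added after seeing the data.

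The 34 genes, the lists and the markers were chosen with earlier results of these data known. Every library's value is given for 15 listed members, for the 6 members with the smallest p for B2 (which adds DNAJC3 and DERL3) and for SIL1, and a range for the rest. The rule allowed 4 genes from each pathway list, up to 2 with the smallest p for B2 and up to 2 between numbers; the first for B2 is named in each, and of the others ALG5 and EIF2AK2. Protein sequences were not used here.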

Additional observations from a re-analysis of the deposited data

How the results depend on the processing

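Across 19 alternatives, 0 of the 34 genes were called between B2 and DMSO, and the replicate block changed no call: it gave 0 genes of the table, a median log2 fold change of the 34 genes of -0.079 and signs of 14 positive and 20 negative. In the whole table DESeq2 called 3 genes, leaving out the libraries numbered 3 with the replicate block called 48, and leaving out 1 library called 0 to 1. The median of the 34 genes ran from -0.13 to 0.052 when 1 library was left out. With library totals as the only scaling the median of all genes was 6.0e-04, against -0.081 with TMM, and 14 of the 34 genes were positive, against 10 with TMM.

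Signs were less stable than calls, and the cause was not tested. With all libraries kept, XBP1 was at -0.0078 with RLE scaling, -0.0063 with DESeq2, -0.020 with limma-voom and with the replicate block, -1.69e-05 with counts divided by 4, and -0.11 and -0.10 with GC and length trends removed, without and with the replicate block. ATF6 was at 0.030 with RLE scaling, 0.060 with upper-quartile scaling, 0.012 with library totals, 0.023 without the filter, 0.027 with the stricter filter, 0.022 with DESeq2, 0.14 with limma-voom, 0.019 with counts divided by 4, 0.17 with the replicate block and 0.19 with the trends removed, with or without the replicate block. HERPUD1 was at 0.017 with upper-quartile scaling, 0.067 with library totals and 0.10 without number 3, with or without the replicate block. CANX was at 0.049 with limma-voom and 0.053 with the replicate block, EIF2AK3 at 0.016 with the replicate block and 0.031 with the trends removed as well, and PDIA4 at 0.055 without number 3 and 0.057 with the replicate block as well.

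Leaving out 1 library gave log2 fold changes from -0.11 to 0.53 for HSPA5, -0.41 to 0.12 for HSP90B1, -0.46 to 0.19 for SDF2L1, -0.93 to 0.34 for DNAJC3, -0.42 to 0.011 for CALR, -0.47 to 0.62 for CANX, -0.30 to 0.092 for PDIA4 and -0.88 to 0.40 for ERO1A. The ranges were -0.64 to 0.68 for EIF2AK3, -0.34 to 0.60 for ATF6, -0.12 to 0.19 for XBP1, -0.074 to 0.083 for HERPUD1, -0.77 to 0.011 for SEL1L and -0.52 to 0.10 for DERL3. HYOU1, DNAJB9 and ERN1 kept 1 sign under all 19 alternatives. These values are for the 17 genes whose fold changes are given; that limit was set after the alternatives had been run for all 34. Over all 34 genes 44 of the values with all libraries kept had the other sign, in 9 genes, as did 55 of those with libraries left out, in 30 genes. In the 102 contrasts of replicate numbers, 38 values had the other sign with all libraries kept and 39 with 1 left out.

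Between replicate numbers, the genes called and the members called were 956 (5.55%) and 1 with RLE scaling, 1168 (6.78%) and 2 with upper-quartile scaling, 266 (1.54%) and 0 with library totals, 535 (3.11%) and 1 without the treatment term and 811 (4.71%) and 1 with the trends removed, each of 17224 genes tested. Other settings tested other genes: 425 of 28792 (1.48%) and 0 members were called without the filter, 2110 of 13536 (15.6%) and 7 with the stricter filter, 1671 of 14278 (11.7%) and 5 with DESeq2, and 2379 of 13948 (17.1%) and 9 with counts divided by 4. With limma-voom they were 1278 of 17224 (7.42%) and 4. Without 1 library they ran from 388 to 4124 genes (up to 22.9%) and from 0 to 11 members (up to 32.4%). Leaving out 1 library left 1 number with 1 library only, so those counts carry little weight. SIL1 was called in 8 of the 10 alternatives that kept all libraries. A single line, dose and time, and 3 libraries per group, limit these data; depth does not, since each of the 34 genes had at least 164 counts in every library.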
